A study of Mus musculus with 7 samples.

Results

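The TREM family (triggering receptors expressed on myeloid cells) and the adaptor proteins that carry its signals were examined in neutrophils sorted from injured mouse livers. The genes were taken by symbol from the deposited table of RPKM values, which are read counts scaled by the length of the transcript and the depth of the library. All 7 symbols sought, the 5 receptors Trem1, Trem2, Trem3, Treml2 and Treml4 and the 2 adaptors Tyrobp and Hcst, were present among its 16047 genes.

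C57BL/6 mice were studied 24 h after an overdose of acetaminophen, which causes liver injury (AILI). The PBS group (4 mice, replicates 5 to 8) received PBS and was labelled normal for Ly6Chi monocytes, the inflammatory monocytes that enter the injured liver. The MC-21 group (3 mice, replicates 2 to 4) received 400 µL of conditioned medium with 29 µg/mL of MC-21, a monoclonal antibody to the chemokine receptor CCR2, and was labelled as lacking infiltrating Ly6Chi monocytes. In both groups injections began 12 h before acetaminophen and were repeated every 24 h, and 50000 neutrophils per liver were sorted for 3′ RNA-seq. The sort gate was CD11b+ Ly6Clo CX3CR1-GFP- Ly6G+, and every library came from 1 liver. Whether these mice carried a GFP at Cx3cr1, which that gate needs in order to leave out GFP-bearing monocytes, is not given in the sources used here. No library came from uninjured liver, and the antibody medium was compared with PBS, not with a medium carrying another antibody. The comparison therefore asked how neutrophils of the injured liver differ when monocytes are kept from entering it.

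TREM receptors are immunoglobulin-like proteins of the myeloid cell surface, and most have short tails that cannot signal alone. Most of them hold a positively charged residue in the membrane, which pairs with a negatively charged residue in the adaptor TYROBP, also called DAP12. When a receptor is engaged, the ITAM of TYROBP, a motif with a pair of tyrosines, is phosphorylated and recruits the kinase SYK, whereas the YxxM motif of HCST, also called DAP10, recruits phosphoinositide 3-kinase. TREM-1 is known in neutrophils and monocytes as an amplifier of inflammation, and TREM-2 in macrophages and microglia as a receptor for lipids and cell debris.

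The coding sequences of the stretch that crosses the membrane are shown because the pairing of receptor and adaptor turns on 1 charged codon in it. Each stretch is the run of 19 codons with the most hydrophobic translation, read 5′ to 3′ on the coding strand of mm9, with charged codons in capitals.
Trem1, chr17:48383736-48383792 (+): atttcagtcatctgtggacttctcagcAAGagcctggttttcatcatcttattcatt
Trem2, chr17:48491102-48491158 (+): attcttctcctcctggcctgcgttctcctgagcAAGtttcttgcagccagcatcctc
Trem3, chr17:48397265-48397321 (+): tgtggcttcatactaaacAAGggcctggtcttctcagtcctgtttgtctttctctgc
Treml4, chr17:48412116-48412172 (+): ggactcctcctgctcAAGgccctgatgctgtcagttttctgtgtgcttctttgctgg
Treml2, chr17:48448460-48448516 (+): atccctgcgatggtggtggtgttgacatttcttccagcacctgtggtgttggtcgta
Tyrobp, chr7:31199564-31199620 (+): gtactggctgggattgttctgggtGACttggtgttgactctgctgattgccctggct
Hcst, chr7:31203135-31203191 (-): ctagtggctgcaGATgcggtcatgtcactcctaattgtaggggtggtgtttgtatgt
Trem1, Trem2, Trem3 and Treml4 each held 1 lysine codon in this stretch, Tyrobp and Hcst each held 1 aspartate codon, and Treml2 held no charged codon.

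The signalling motifs of the adaptors lie in their cytoplasmic tails. The ITAM of Tyrobp is read across 2 exons between chr7:31200677-31202413, with its tyrosine and leucine codons in capitals, and the YxxM motif of Hcst lies in 1 exon at chr7:31202828-31202863 on the minus strand, with the motif in capitals.
Tyrobp ITAM: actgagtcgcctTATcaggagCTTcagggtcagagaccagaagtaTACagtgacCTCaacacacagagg
Hcst YxxM: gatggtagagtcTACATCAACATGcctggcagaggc

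In the mm9 annotation the 5 receptor genes lie within 121.6 kb of chromosome 17, all on the plus strand, in the order Trem1 (48371903 to 48386091), Trem3 (48386944 to 48398207), Treml4 (48403659 to 48414726), Treml2 (48438864 to 48451859) and Trem2 (48485726 to 48493472). Tyrobp (31198807 to 31202596, plus strand) and Hcst (31202732 to 31204873, minus strand) lie on chromosome 7 with their 3′ ends facing each other across 135 bases. No run of 50 bases in the transcripts of any of the 7 genes occurred in a protein-coding transcript of another gene.

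The libraries were shallow: 1.59 reads (MC-21 replicate 3) to 3.96 reads (PBS replicate 8) in a transcript of 1 kb made up 1 RPKM. Each library had a value above 0 for 12376 to 13864 genes, and Pearson's r of log2(RPKM + 1) between libraries of 1 group was at least 0.953. Of the 12 neutrophil markers, all 12 passed a mean of 1 RPKM, and S100a9 (12274.6 to 25040.9 RPKM) and Retnlg (2069.3 to 7057.8 RPKM) had the highest means. Other cell types were represented too: the summed level of 6 endothelial markers was 1027.4 to 2320.4 RPKM in PBS and 1176 to 2100.8 RPKM in MC-21 libraries, of which Clec4g had 474 to 1508.7 and 583 to 1538.9 RPKM, and that of 6 hepatocyte markers was 215 to 370.1 and 187 to 305 RPKM. The summed levels of 10 NK and T cell markers (9.47 to 16.7 RPKM in PBS, 8.15 to 22.3 in MC-21), 8 dendritic cell markers (9.07 to 12.8 and 6.25 to 12) and 4 B cell markers (10.7 to 29.9 and 6.14 to 9.73) were low. No gene of these 6 lists had an adjusted p under 0.05 (limma). An unadjusted p under 0.05 was found for 4 of the neutrophil markers and for 0 to 2 genes in each of the other lists (14.7% of all genes). In bulk samples, fewer cells of a type and less RNA per cell cannot be told apart.

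**Figure D1:**
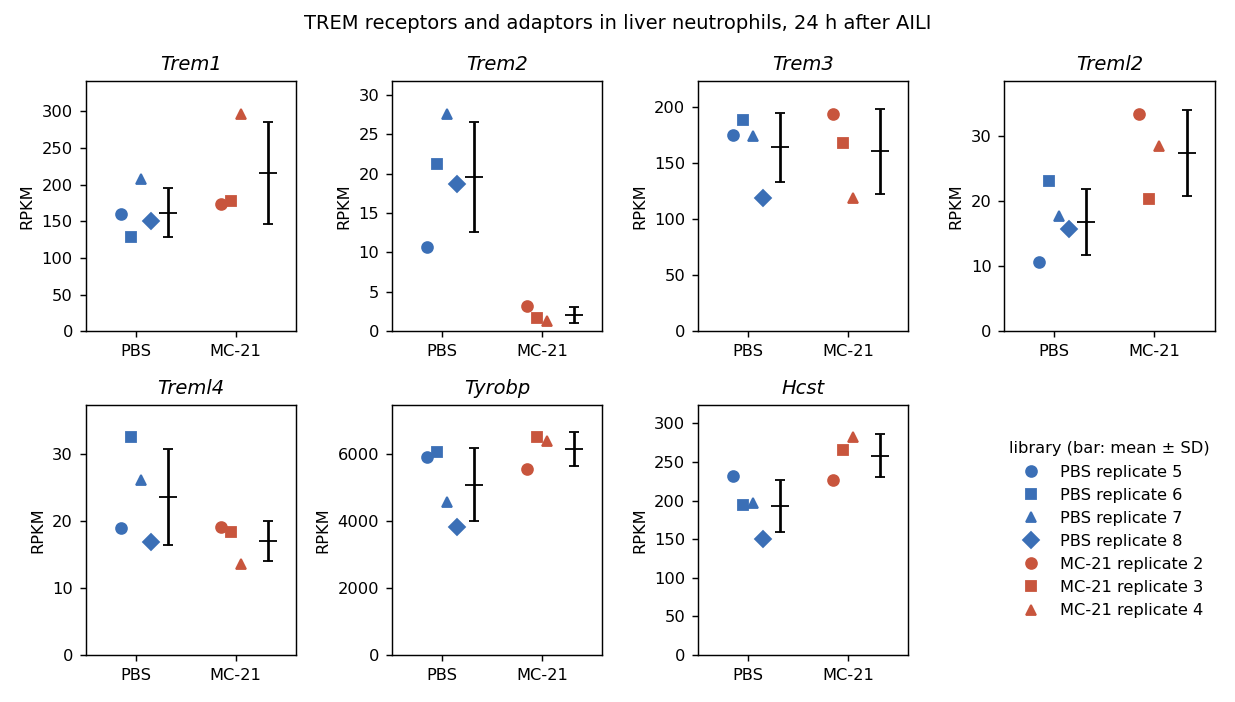
RPKM of the 7 genes in each library of PBS (blue) and MC-21 (red) neutrophils, each panel with its own linear axis from 0, symbols for replicates and bars for the group mean ± SD (n = 4 and 3). The groups separated for Trem2, at 10.7 to 27.6 against 1.26 to 3.18 RPKM, and overlapped for the other 6 genes.

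Levels were compared between genes on the RPKM scale, which divides by transcript length. Since 3′ libraries sample the transcript end, this division understates long transcripts, such as Trem1 and Treml2, against short ones, such as Tyrobp and Hcst. By RPKM the order in PBS neutrophils was Tyrobp, Hcst, Trem3, Trem1, Treml4, Trem2 and Treml2. Tyrobp was 26.3-fold above Hcst with no overlap between libraries, the ranges of Hcst, Trem3 and Trem1 overlapped, Trem1 was 6.88-fold above Treml4 with no overlap, and those of Treml4, Trem2 and Treml2 overlapped. In MC-21 neutrophils Trem1 stood before Trem3 with overlapping ranges, and Treml2 (1.61-fold above Treml4) and Treml4 (8.4-fold above Trem2) no longer overlapped with their neighbours. Trem2 was thus 2803rd of all genes by mean RPKM in PBS neutrophils and 7914th in MC-21 neutrophils.

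Of the 7 genes, 1 had an adjusted p under 0.05 between the groups (limma on log2(RPKM + 1), Benjamini-Hochberg adjustment over the 9594 genes whose mean was 1 RPKM or more, which included all 7). That gene was Trem2, which fell in MC-21 neutrophils, and 0.427% of all genes tested fell by this rule (0.625% changed in either direction). Trem2 was known from earlier results of these data to be among the largest falls. Differences on this scale understate the fold of genes with low RPKM. The median difference of all genes was -0.15, and 69.4% of them were below 0.

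Trem1, the amplifier of neutrophil and monocyte activation, was an abundant receptor in both groups. Its level was 159.9, 129, 208 and 151 RPKM in PBS replicates 5 to 8 and 174, 178 and 297 RPKM in MC-21 replicates 2 to 4. MC-21 replicate 4 was the highest of the 7 libraries, and the other MC-21 libraries lay within the PBS range. The means were 162 ± 33.3 RPKM (SD, n = 4) and 216 ± 69.9 RPKM (SD, n = 3), a log2 difference of 0.39 (standard error 0.23, 95% interval -0.11 to 0.90, limma adjusted p = 0.46). Without MC-21 replicate 4 the difference was 0.14. Between 858 and 2499 reads stood behind each of these values, so that counting error was small against the spread between mice.

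Trem2, the lipid and debris receptor of macrophages, was measured at 10.7, 21.2, 27.6 and 18.7 RPKM in PBS replicates 5 to 8. In MC-21 replicates 2 to 4 it was at 3.18, 1.64 and 1.26 RPKM. Every MC-21 library lay below every PBS library, which held in the same direction for 10.2% of all genes. The means were 19.6 ± 6.96 RPKM (SD, n = 4) and 2.03 ± 1.02 RPKM (SD, n = 3), and the log2 difference was -2.74 (standard error 0.32, 95% interval -3.47 to -2.02, limma adjusted p = 0.00853). That was 6.7-fold lower on the scale of RPKM + 1 and 9.66-fold lower by the ratio of mean RPKM, and 0.0208% of the genes tested had a lower difference. The adjusted p was 0.0595 without PBS replicate 8, 0.0645 without a filter on low values and 0.15 when each gene kept its own variance, while the difference lay between -3.23 and -2.56 under all alternatives.

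The values of Trem2 rested on few reads. Low RPKM values fall on multiples of what 1 read is worth, and at the transcript length that gave whole reads in all 7 libraries (1146 bases), Trem2 had 34, 81, 84 and 85 reads in PBS replicates 5 to 8. In MC-21 replicates 2 to 4 it had 13, 3 and 4 reads. The exact 95% Poisson intervals of the MC-21 counts (6.92 to 22.2, 0.619 to 8.77 and 1.09 to 10.2 reads) cover counting error only. Summed over libraries, 284 reads in PBS stood against 20 in MC-21 neutrophils, a ratio of 8.87 once divided by depth (exact 95% binomial interval 5.64 to 14.7, counting error only). The drop was thus larger than counting error, but levels within the MC-21 group, 1.26 to 3.18 RPKM, could not be ordered at this depth.

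Trem3, a mouse receptor next to Trem1 that also pairs with TYROBP, was at 175, 188, 174 and 119 RPKM in PBS replicates 5 to 8. Its values of 194, 168 and 119 RPKM in MC-21 replicates 2 to 4 spanned the same range. PBS replicate 8 and MC-21 replicate 4 were the low libraries. The means were 164 ± 31.0 (SD, n = 4) and 161 ± 37.8 RPKM (SD, n = 3), with a log2 difference of -0.04 (95% interval -0.51 to 0.44, limma adjusted p = 0.951). Its sign turned when libraries were centred on their medians (0.13) and, among others, without MC-21 replicate 4 (0.16).

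Treml2, the receptor without a charged membrane codon, was at 10.7, 23.1, 17.8 and 15.7 RPKM in PBS replicates 5 to 8 and 33.5, 20.3 and 28.5 RPKM in MC-21 replicates 2 to 4. MC-21 replicates 2 and 4 were above every PBS library, and MC-21 replicate 3 was below PBS replicate 6. The log2 difference of 0.69 (standard error 0.26, 95% interval 0.11 to 1.28) was above that of 97.7% of genes, but its limma adjusted p was 0.276. Treml4, a receptor reported to bind dying cells, was at 18.9, 32.5, 26.1 and 16.8 RPKM in PBS replicates 5 to 8 and 19.1, 18.4 and 13.6 RPKM in MC-21 replicates 2 to 4. The groups overlapped, with a log2 difference of -0.42 (95% interval -0.96 to 0.13, limma adjusted p = 0.465). It was -0.25 without PBS replicate 6, -0.27 without MC-21 replicate 4 and -0.25 after median centring.

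Tyrobp, the adaptor of the lysine-bearing receptors, was the 8th most abundant of all genes by mean RPKM in PBS neutrophils and the 7th in MC-21 neutrophils. It was at 5910.2, 6065.9, 4552.9 and 3811.4 RPKM in PBS replicates 5 to 8 and 5554.9, 6493.9 and 6386.6 RPKM in MC-21 replicates 2 to 4. PBS replicates 7 and 8 were low and the other 5 libraries lay together. The log2 difference was 0.30 (standard error 0.17, 95% interval -0.09 to 0.69, limma adjusted p = 0.469), and it was 0.17 without PBS replicate 8 and 0.09 after quantile normalization. Hcst, the adaptor with the YxxM motif, was at 232, 194, 197 and 150.2 RPKM in PBS replicates 5 to 8 and 227, 266 and 282 RPKM in MC-21 replicates 2 to 4. Only PBS replicate 5 reached into the MC-21 range. Its log2 difference was 0.43 (standard error 0.17, 95% interval 0.05 to 0.80), with a limma adjusted p of 0.288.

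Trem2, Treml2 and Hcst, 3 of the 7 genes, had an unadjusted p under 0.05, which 14.7% of all genes had. Treml2 and Hcst were higher in MC-21 neutrophils by this rule, as were 3.59% of all genes. Intervals of the 6 genes without a call still allowed differences of up to 1.28 on the log2 scale (Treml2) in 1 direction and -0.96 (Treml4) in the other.

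**Figure D2:**
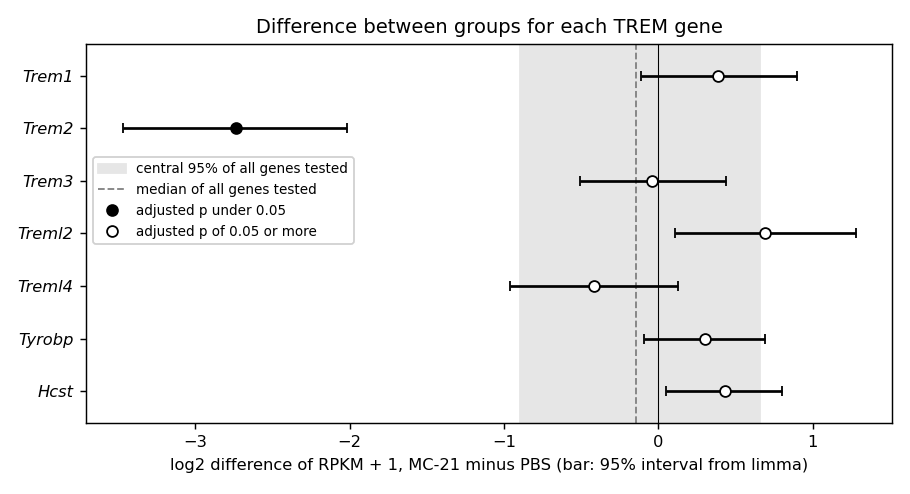
Log2 difference of RPKM + 1 between MC-21 and PBS neutrophils for the 7 genes, with 95% intervals from limma and filled points for an adjusted p under 0.05. The grey band holds the central 95% of all genes tested (-0.90 to 0.66), and Trem2 at -2.74 lay far to its left, with Treml2 at 0.69 just to its right.

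To compare the genes with less influence of scaling between libraries, differences of log2(RPKM + 1) were taken within each library for 7 pairs. Scaling is not fully removed for low values such as those of Trem2, on which the added 1 weighs. The exact two-sided permutation test over 35 splits cannot give a p below 0.0286. Trem2 relative to Trem1 was at -3.04 ± 0.52 (SD, n = 4) in PBS and -6.17 ± 0.83 (SD, n = 3) in MC-21 neutrophils (exact permutation p = 0.0286, adjusted p = 0.1 over 7 pairs). Trem2 relative to Tyrobp was at -8.0 ± 0.73 (SD, n = 4) and -11.04 ± 0.58 (SD, n = 3), with the same exact permutation p of 0.0286 and adjusted p of 0.1. For both pairs all 3 MC-21 libraries lay below all 4 PBS libraries. With 0.1 added in place of 1, the group difference went from -3.14 to -3.63 against Trem1 and from -3.04 to -3.53 against Tyrobp. These values use the same Trem2 measurements as the test above and are no separate evidence.

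The other pairs did not separate. Hcst relative to Tyrobp moved by 0.13 (exact permutation p = 0.314) and kept an SD of 0.18 in PBS and 0.06 in MC-21 neutrophils. Trem1 relative to Tyrobp moved by 0.1 (exact permutation p = 0.743), Treml2 relative to Trem1 by 0.3 (exact permutation p = 0.457), Trem3 relative to Trem1 by -0.43 (exact permutation p = 0.457) and Treml4 relative to Tyrobp by -0.71 (exact permutation p = 0.0857, adjusted p = 0.2).

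On the RPKM scale Tyrobp exceeded the sum of the 4 lysine-bearing receptors in every library, by 16.2, 16.4, 10.4 and 12.5 times in PBS replicates 5 to 8 and 14.2, 17.7 and 14.8 times in MC-21 replicates 2 to 4. Trem2 made up 2.94, 5.72, 6.32 and 6.13% of that sum in the PBS libraries and 0.815, 0.448 and 0.291% in the MC-21 libraries. On this scale Trem1 exceeded Trem2 by 6.07 to 14.9 times in PBS and 54.8 to 237 times in MC-21 libraries, which did not overlap. Division by length shapes all these ratios. Summed over PBS libraries, recovered reads were 36084 for Tyrobp against 6121, 284, 2142 and 517 for Trem1, Trem2, Trem3 and Treml4. By reads the excess of Tyrobp and the share of Trem2 were thus smaller, and the excess of Trem1 over Trem2 was larger.

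**Figure D3:**
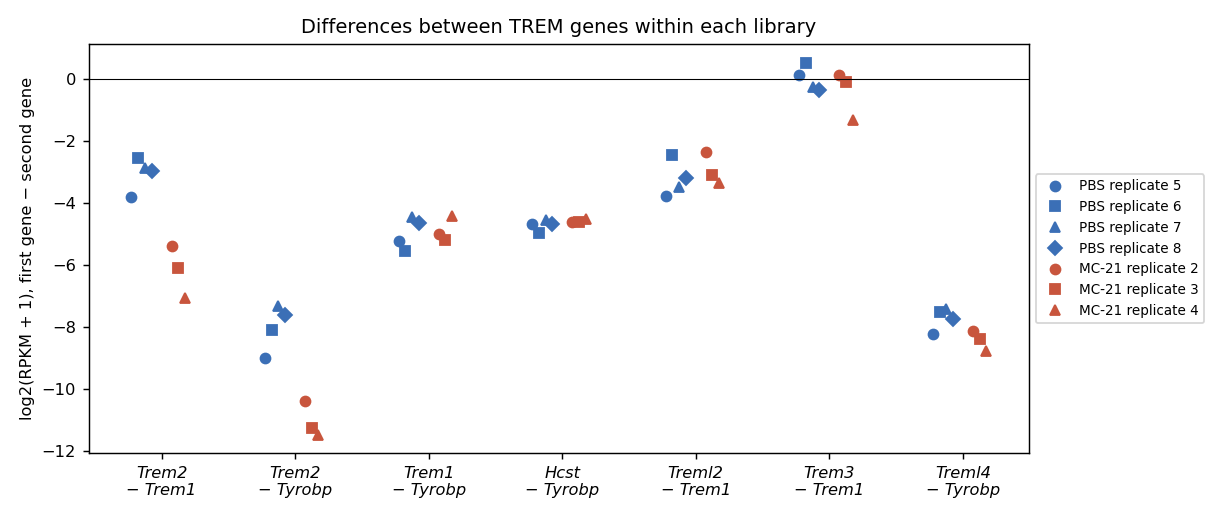
Difference of log2(RPKM + 1) between the genes of each of 7 pairs within each library, PBS in blue and MC-21 in red, with symbols for replicates. The groups lay apart for Trem2 against Trem1 and against Tyrobp, and overlapped for the other 5 pairs.

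Other genes of the TREM pathway were followed in 8 lists. Of other genes at the TREM locus, Treml1 had 2, 2, 3 and 0 reads in PBS replicates 5 to 8 and 0 reads in the MC-21 libraries, where the exact 95% interval reaches 3.69 reads, and was under the filter. Gm5150, the other gene of that list in the table, had a log2 difference of 0.13 (limma adjusted p = 0.847). Whether Gm5150 lies at the TREM locus was not checked. Across the 7 other lists, 4 genes had an adjusted p under 0.05. Of all genes tested, 0.427% fell and 0.198% rose by the adjusted p, and 14.7% had an unadjusted p under 0.05 (limma).

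Among 7 tested receptors of other families listed as partners of TYROBP or HCST, 1 rose and none fell (0.198% of all genes rose). Their median difference was 0.28, and which adaptor each receptor uses was not checked. The one that rose was Cd300ld, a receptor of the CD300 family, at 36.1, 55.3, 44.1 and 39.97 RPKM in PBS replicates 5 to 8 and 87.7, 87.6 and 78.9 RPKM in MC-21 replicates 2 to 4. All MC-21 libraries were above all PBS libraries, as for 3.1% of genes. Its log2 difference was 0.95 (standard error 0.17, limma adjusted p = 0.0415), with adjusted p between 0.0853 and 0.142 without PBS replicate 5, 7 or 8 or any 1 MC-21 library. The CD300 genes resemble each other, and how reads fitting several of them were counted is not given in the sources used here.

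None of the 23 tested genes that signal below the ITAM and YxxM motifs had an adjusted p under 0.05 (limma), 2 had an unadjusted p under 0.05, and their median difference was 0.03. Syk, the kinase that docks on the ITAM, was at 44.9 to 63.5 RPKM in PBS and 54.6 to 71.8 RPKM in MC-21 neutrophils (log2 difference 0.16, limma adjusted p = 0.698). Fcer1g, another ITAM adaptor, was at 1373 to 1632.5 and 1418.6 to 1567.9 RPKM (log2 difference 0.01, limma adjusted p = 0.978). Among the genes of this list averaging 5 RPKM or more, the largest difference was that of Lat2, an adaptor protein of the plasma membrane, at -1.16 (limma adjusted p = 0.075).

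Of 15 tested brakes on ITAM signalling, 1 fell and 1 rose, with a median of -0.05. An unadjusted p under 0.05 was found for 2 lower and 3 higher genes (limma, 14.7% of all genes). All MC-21 libraries lay below all PBS libraries for 3 genes and above for 3 (10.2% and 3.1% of all genes). Dok2, an adaptor that restrains tyrosine kinase signals, fell from 12.4, 24.8, 33.1 and 15.6 RPKM in PBS replicates 5 to 8 to 6.2, 3.29 and 5.44 RPKM in MC-21 replicates 2 to 4. All MC-21 values were below all PBS values, as for 10.2% of all genes, with a log2 difference of -1.85 (standard error 0.33, limma adjusted p = 0.0448). Clec12a, an inhibitory lectin receptor for products of dead cells, rose from 12.5 to 25 RPKM in PBS to 43 to 82.5 RPKM in MC-21 libraries, with a log2 difference of 1.74 (standard error 0.27, limma adjusted p = 0.0287). Both sat close to the threshold: the adjusted p of Dok2 was 0.0699 to 0.123 without PBS replicate 6, 7 or 8 or any 1 MC-21 library, and that of Clec12a was 0.06 to 0.111 without PBS replicate 5, 7 or 8 or MC-21 replicate 2 or 3. The call of Dok2 also ended after median centring (adjusted p = 0.0564), after quantile normalization (0.0658) and without a variance trend (0.0556). The phosphatases Ptpn6 (log2 difference -0.18, limma adjusted p = 0.541) and Inpp5d (0.08, limma adjusted p = 0.868) had no call.

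None of the 7 tested genes for proposed TREM ligands and none of the 8 tested sheddases and gamma-secretase subunits, which cut TREM proteins from the surface, had an adjusted p under 0.05 (limma), and 2 of each list had an unadjusted p under 0.05. Their medians were -0.13 and -0.06. Lgals3, which encodes the lectin galectin-3, was at 378 to 624 RPKM in PBS and 277 to 279 RPKM in MC-21 neutrophils (log2 difference -0.76, limma adjusted p = 0.0837). Psen2, a catalytic subunit of gamma-secretase, was at 104 to 154 and 70.6 to 89.8 RPKM (-0.64, limma adjusted p = 0.149).

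Of the 11 tested cytokine and mediator genes that TREM-1 signalling is known to amplify, 10 had a difference above 0 and the median was 0.58. Of all genes tested, 69.4% lay below 0. None of the 11 had an adjusted p under 0.05 (limma). An unadjusted p under 0.05 was found for 4, all higher in MC-21 neutrophils, as were 3.59% of all genes by this rule. Ccl2, a monocyte chemokine and ligand of CCR2, had the largest difference, 1.26 (standard error 0.56, limma adjusted p = 0.336), over 111 to 435 RPKM in PBS and 273 to 1200.9 RPKM in MC-21 libraries. Cxcl2, a neutrophil chemokine, was at 7687.3 to 12754.8 RPKM in PBS and 14212.3 to 16233.3 RPKM in MC-21 libraries (0.58, limma adjusted p = 0.194). Its MC-21 libraries were all above the PBS libraries, as for 3.1% of all genes. Tnf was the gene below 0 (-0.43, limma adjusted p = 0.364).

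Of the 18 genes of the programme that depends on TREM2 in macrophages of other tissues, 1 fell and 0 rose (0.427% and 0.198% of all genes). The median was -0.21, and 12 had an unadjusted p under 0.05 (14.7% of all genes), 7 lower and 5 higher. Axl, a receptor kinase for dying cells, was at 4.77, 4.37, 5.84 and 7.15 RPKM in PBS replicates 5 to 8 and 1.05, 1.36 and 0.919 RPKM in MC-21 replicates 2 to 4. It fell by 1.62 on the log2 scale (standard error 0.21, limma adjusted p = 0.0139), with all MC-21 libraries below all PBS libraries (10.2% of all genes). Without PBS replicate 7 or 8 or MC-21 replicate 2 or 4 its adjusted p was 0.0553 to 0.072. The rest of the programme did not move as a block: Lpl, lipoprotein lipase, had a difference of -1.98 (limma adjusted p = 0.073) and Gpnmb, a glycoprotein of lysosome-rich macrophages, of -1.75 (0.127), whereas Fabp5, a fatty acid carrier, had 1.37 (0.0572) and Cst7, a cysteine protease inhibitor, 1.59 (0.151).

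**Figure D4:**
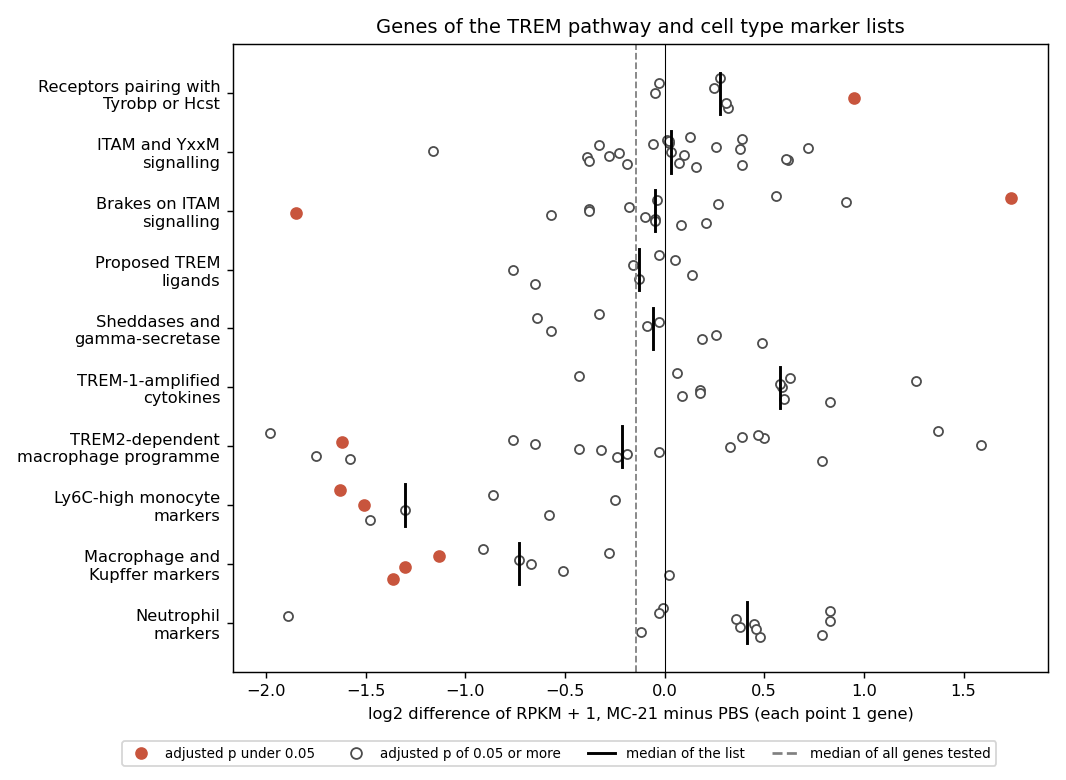
Log2 difference of RPKM + 1 (MC-21 minus PBS) for each tested gene of 7 TREM pathway lists and 3 marker lists, with red points for an adjusted p under 0.05, solid bars for list medians and the dashed line for the median of all genes (-0.15). The 4 pathway genes past the threshold were Dok2 and Axl to the left and Cd300ld and Clec12a to the right.

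Some markers of monocytes and macrophages fell as Trem2 did, and others had no call. Of 8 Ly6Chi monocyte markers in the table, 7 were tested and 2 fell (Ccr2 and F13a1), where 0.427% of all genes fell. All 7 had a difference below 0 (69.4% of all genes). Of these, 6 had an unadjusted p under 0.05 (limma, 14.7% of all genes). The median difference was -1.3, and the summed level was 113 to 166 RPKM in PBS and 76.1 to 94.4 RPKM in MC-21 libraries. Ccr2, the target of MC-21, was at 1.91, 3.26, 2.3 and 2.18 RPKM in PBS replicates 5 to 8 and 0.39, 0 and 0.2 RPKM in MC-21 replicates 2 to 4 (log2 difference -1.51, limma adjusted p = 0.0263). F13a1, a coagulation factor subunit, was at 2.06 to 5.27 and 0.183 to 0.428 RPKM (-1.63, limma adjusted p = 0.0378). The MC-21 means of Ccr2 and F13a1, 0.197 and 0.31 RPKM, were under the filter of 1 RPKM. Both were tested only through their PBS levels, so these calls could only be falls and are no support. Ms4a4c and Cx3cr1, also tested, likewise averaged 0.191 and 0.628 RPKM in MC-21 libraries. Vcan was at 0 in all MC-21 libraries and at most 0.0739 RPKM in PBS libraries, and the most abundant markers of the list, Csf1r and Ly6c2, differed by -0.58 (limma adjusted p = 0.307) and -0.25 (limma adjusted p = 0.577).

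Of 13 macrophage and Kupffer cell markers, 9 were tested and 3 fell, where 0.427% of all genes fell. Of the 9, 8 had a difference below 0 (69.4% of all genes). An unadjusted p under 0.05 was found for 6, all lower (limma, 14.7% of all genes in either direction). The median was -0.73, and the summed level was 538 to 614 RPKM in PBS and 251 to 329 RPKM in MC-21 libraries. Cd68, a lysosomal protein of phagocytes, was at 118 to 176 and 87.1 to 92.2 RPKM (-0.73, limma adjusted p = 0.0786). Adgre1, a general macrophage marker, was at 7.36 to 21.9 and 3.88 to 22.2 RPKM (0.02, limma adjusted p = 0.988). Among markers of resident Kupffer cells, Marco was at 32.2 to 41.1 and 18.8 to 33.6 RPKM (-0.51, limma unadjusted p = 0.0345, adjusted p = 0.307). Cd5l was at 18.1 to 31.8 and 11.8 to 22.2 RPKM (-0.67, limma unadjusted p = 0.0275, adjusted p = 0.285). Clec4f was at 4.07 to 10.2 and 2.25 to 8.38 RPKM (-0.28, limma adjusted p = 0.794), and Timd4 was at most 0.691 RPKM in any library. None of the 8 Ly6Clo monocyte markers had an adjusted p under 0.05 (limma), and 7 had an unadjusted p under 0.05 (14.7% of all genes). Their median was -0.68, with a summed level of 971 to 1290.8 and 829 to 961 RPKM. Most of that sum was Nr4a1, at 841 to 1122.2 RPKM in PBS and 743 to 859.5 RPKM in MC-21 libraries. The 12 neutrophil markers had a median of 0.41, none with an adjusted p under 0.05 and 4 with an unadjusted p under 0.05. The part of these cells in the difference of Trem2, Dok2 or Axl was not tested, and since MC-21 removes monocytes from the liver by design, RNA of monocytes or their descendants in the sort and RNA of the neutrophils themselves cannot be told apart.

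**Figure D5:**
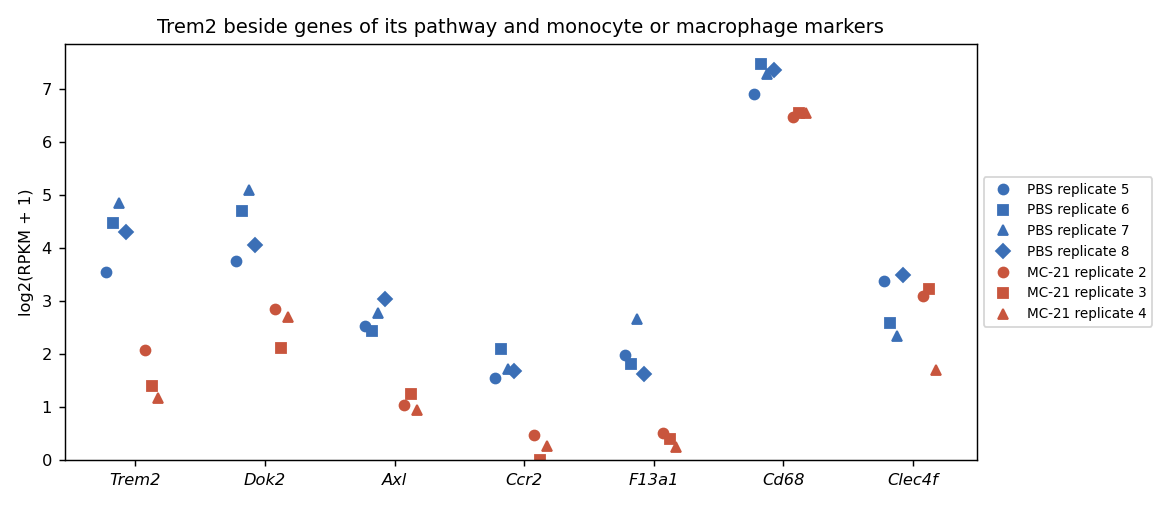
Log2(RPKM + 1) in each library of Trem2, of Dok2 and Axl, and of the monocyte and macrophage markers Ccr2, F13a1, Cd68 and Clec4f, PBS in blue and MC-21 in red. The groups lay apart for the first 6 genes and overlapped for Clec4f (4.07 to 10.2 against 2.25 to 8.38 RPKM).

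The genes whose pattern over the 7 libraries was most like that of each TREM gene were sought among the 5860 genes that averaged 5 RPKM or more, by Pearson's r of log2(RPKM + 1). The points share their libraries and depth, and the 2 groups set apart by treatment enter each r, so r is a description only. The genes ranked 2 and 3 for Trem2 were Rab7b (r = 0.988), a GTPase of late endosomes, at 5.23 to 8.88 RPKM in PBS and 2 to 2.8 RPKM in MC-21 libraries, and Aprt (r = 0.981), an enzyme of purine salvage, at 65.6 to 83.7 and 43.2 to 50.1 RPKM. Both kept the groups apart, as Trem2 did.

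For Trem1 the nearest genes were Pirb (r = 0.972), an inhibitory immunoglobulin-like receptor, Snai1 (r = 0.961) and Lmnb1 (r = 0.96), all highest in an MC-21 library. For Trem3 they were Pira6 (r = 0.987), an activating immunoglobulin-like receptor, Pole4 (r = 0.97) and Mrpl32 (r = 0.964). Treml2 was followed by B3galt4 (r = 0.987), Tgm2 (r = 0.984), a transglutaminase at 156 to 339 RPKM in PBS and 358 to 686 RPKM in MC-21 libraries, and Hk3 (r = 0.982), a hexokinase at 30.5 to 58.9 and 59.4 to 85.9 RPKM. Tgm2 and Hk3, unlike Treml2, did not overlap between the groups.

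Treml4 was followed by Larp7 (r = 0.979), Rnf4 (r = 0.964) and Susd3 (r = 0.96). Tyrobp was followed by Smim14 (r = 0.966), Lamtor5 (r = 0.93) and Cks2 (r = 0.913), and Hcst by Akap13 (r = 0.96), Gng2 (r = 0.955) and Xdh (r = 0.95). No TREM gene was among the 3 genes nearest to another.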

How the data were processed

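RNA of sorted neutrophils was sequenced as 3′ RNA-seq libraries. The authors mapped reads to mm9 with HISAT 0.1.5 and deposited 1 RPKM value per gene and mouse from Partek 6.6, with SAMtools and bcl2fastq also named in the submitters' processing notes. The annotation and the handling of molecular barcodes and of reads that map to several places are not given in the sources used here.

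Differences were fitted on log2(RPKM + 1) in limma 3.58.1 under R 4.3.3, with variances moderated by eBayes along a trend in mean level, for genes averaging 1 RPKM or more. Reads and depth were recovered from the steps of low RPKM values: 45.5% of 982 genes gave the same depth, and 74.7% of 5172 low values came out whole to within 0.1 read. They serve as description, and tests for counts were not run. The members' reads lay within 0.006 of whole numbers. Their transcript lengths were picked for the smallest such deviation, so this closeness is no check of the reads. For Trem2 the length picked, 1146 bases, lay outside the annotated 1056 to 1088 bases. So did those of Trem3 (1048 against 994) and Hcst (442 against 416 to 437). Those of Tyrobp (566 against 564) and Treml4 (1745 against at most 1744) lay just outside. On simulated data with 200 of 9594 genes changed by a fixed, large step on the log2 scale, limma called 179 (89.5%) and 11 others. The step was larger than the difference of every TREM gene here except Trem2. The share called therefore does not apply to differences as small as those of the genes without a call.

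The 7 genes and all lists were chosen with earlier results of these data known. Named were the 7 genes, list genes with an adjusted p under 0.05 or else the largest difference at a mean of 5 RPKM, the 2 most abundant markers of a list, and the 3 genes of highest r. Other names (Syk, Fcer1g, Ptpn6, Inpp5d, Cxcl2, Tnf, Lpl, Gpnmb, Fabp5, Cst7, Clec4f, Adgre1, Marco, Cd5l, Timd4, Vcan, Ms4a4c, Cx3cr1) were added after their values were seen. Of the marker lists, only the genes needed beside a result are named. Results of a few genes that these rules pick, the gene ranked 1 by r for Trem2 among them, are not reported here, though they stayed in all fits. Alternatives were other pseudocounts, filters, scalings and variance models, and leaving out each library. Sequences came from the mm9 genome and its annotation, read with Python 3.11.15.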

Additional observations from a re-analysis of the deposited data

How the results depend on the processing

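The number of genes with an adjusted p under 0.05 was 60. It dropped to 6 with no filter on low values and to 4 without moderation of variances and was 9 (without PBS replicate 8) to 102 (without PBS replicate 6) with 1 library left out, each of which moved it by over 1.5 times. Lower genes made up 68.3% of them, 40.5% after median centring and 52.7% after quantile normalization. Of the 7 TREM genes, 1 passed, and 0 did without a filter, without moderation and without PBS replicate 8 (0 to 1 over the libraries left out). The pathway lists held 4 genes that passed, 0 without a filter, 2 without a variance trend, 0 without moderation, and 0 to 5 with 1 library left out, with 0 without PBS replicate 7, PBS replicate 8 or MC-21 replicate 2, 1 without MC-21 replicate 4 and 2 without MC-21 replicate 3. Without a filter and without moderation, the adjusted p was 0.121 and 0.191 for Cd300ld, 0.167 and 0.247 for Dok2, 0.123 and 0.225 for Clec12a, and 0.0688 and 0.0927 for Axl, and without a variance trend 0.0721 for Cd300ld. The difference of Trem3 turned to 0.13 after median centring and to 0.0, 0.04 and 0.16 without PBS replicate 5, PBS replicate 6 and MC-21 replicate 4 (-0.19 to 0.16 over the libraries left out). That of Trem1 relative to Tyrobp turned to -0.1 without PBS replicate 6 and -0.13 without MC-21 replicate 4 (-0.13 to 0.27), and that of Trem3 relative to Trem1 to 0.02 without MC-21 replicate 4 (-0.71 to 0.02). Of 98 recomputed differences of the 7 genes, 91 kept direction and side of the threshold, 3 (Trem2) kept direction only and 4 (Trem3) changed sign. The cause of these changes was not tested. With 1 library left out, the permutation test of pairs cannot give a p under 0.05. No paired analysis was possible because the groups share no replicate numbers. Depth limits Trem2 most, with 3 and 4 reads in MC-21 replicates 3 and 4.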
